A study of Mus musculus with 3 samples.

Results

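Interferon-stimulated genes are the genes that cells switch on when type I interferon binds its receptor, and 36 of them were followed here in spleen B cells of LDHA-deficient and LDHA-sufficient mice. The members were the genes of a fixed list of known interferon targets, taken by symbol from the gene matrix. The list was chosen with earlier results of these data known. Of the 36, 35 were among the 32285 genes measured, and Mx1 was not analysed here. By role the 35 comprised 16 antiviral effectors, 4 sensors of foreign nucleic acid, 4 transcription factors or feedback regulators, and 11 other induced genes.

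The mice were 3 LDHA-deficient animals, labelled KO, and 3 LDHA-sufficient animals, labelled WT. LDHA is lactate dehydrogenase A, the enzyme that turns pyruvate into lactate at the end of glycolysis, and the stated question was its role in germinal center (GC) B cell activation and proliferation. Viable B cells were sorted by their staining for GL7, which GC B cells carry on their surface, tagged per mouse with an antibody-borne oligonucleotide (a hashtag), pooled and run on 1 lane of droplet 5′ RNA sequencing. The labels used here name neither the promoter or cell type that drives the deletion nor the strain, the age or any immunization, so what both genotypes share beyond the sort is unknown. The labels call the hashtag and receptor libraries hematopoietic stem and progenitor cells, while the protocol, and the B cell markers Cd79a, Cd79b and Ms4a1 in the cells, are those of B cells. A shared lane held all 6 mice, so no comparison is split by a batch, and p-values measure only the spread between these 6 mice.

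Type I interferons bind the receptor made of Ifnar1 and Ifnar2, whose kinases are Jak1 and Tyk2. Stat2 and Irf9 are subunits of the complex ISGF3, which forms after phosphorylation and binds the interferon-stimulated response element (ISRE) in front of target genes. Interferon gamma signals through Ifngr1 and Ifngr2, and its signal acts through another element, GAS. In B cells the pathway is known to modulate activation, class switching and survival, and many cells keep a low tonic level of target genes without infection.

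The bases in front of 6 effector genes are shown because, of the members that held the motif marked here, these 6 had the widest contrast between cells in the results that follow. Each run holds 200 bases directly before the start site, 5′ to 3′ on the gene's strand, from RefSeq on GRCm38.p6, and capitals mark the ISRE core, searched as GAAA, any 2 bases and GAAA again, or its reverse complement of TTTC, any 2 bases and TTTC, merged where copies overlap.
Rsad2: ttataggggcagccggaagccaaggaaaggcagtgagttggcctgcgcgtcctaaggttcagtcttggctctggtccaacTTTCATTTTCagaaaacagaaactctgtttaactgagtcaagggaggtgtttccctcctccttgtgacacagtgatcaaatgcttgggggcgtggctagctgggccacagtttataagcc
Ifit3: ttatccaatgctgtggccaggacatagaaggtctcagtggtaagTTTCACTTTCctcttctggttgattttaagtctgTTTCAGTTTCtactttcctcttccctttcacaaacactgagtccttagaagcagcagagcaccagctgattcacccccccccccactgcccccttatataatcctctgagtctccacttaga
Ifit3b: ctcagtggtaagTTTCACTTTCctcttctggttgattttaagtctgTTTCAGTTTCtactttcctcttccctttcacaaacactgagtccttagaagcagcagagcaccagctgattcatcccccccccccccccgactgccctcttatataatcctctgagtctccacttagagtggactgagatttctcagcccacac
Ifit1: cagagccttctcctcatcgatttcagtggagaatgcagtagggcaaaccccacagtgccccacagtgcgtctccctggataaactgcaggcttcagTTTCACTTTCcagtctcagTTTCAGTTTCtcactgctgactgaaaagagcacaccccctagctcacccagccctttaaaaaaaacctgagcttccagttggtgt
Slfn5: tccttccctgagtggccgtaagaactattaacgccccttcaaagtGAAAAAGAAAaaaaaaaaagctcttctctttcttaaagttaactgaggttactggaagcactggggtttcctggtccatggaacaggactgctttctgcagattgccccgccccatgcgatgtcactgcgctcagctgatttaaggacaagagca
Isg15: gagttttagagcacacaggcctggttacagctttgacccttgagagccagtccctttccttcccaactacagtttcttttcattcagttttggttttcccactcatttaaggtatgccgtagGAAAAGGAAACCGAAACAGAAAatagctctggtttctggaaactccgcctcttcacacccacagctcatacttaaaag
The Rsad2 window lies at chr12:26456453-26456652 (minus strand), that of Ifit3 at chr19:34583329-34583528 (plus strand) and that of Ifit3b at chr19:34607757-34607956 (plus strand). The Ifit1 window lies at chr19:34640689-34640888 (plus strand), that of Slfn5 at chr11:82951902-82952101 (plus strand) and that of Isg15 at chr4:156200819-156201018 (minus strand). Windows and distances count from the RefSeq start. GENCODE starts Slfn5 at 82951349, so its window lies inside that span, and the Ifit1 window runs past the GENCODE start at 34640871. Of 29 members with a RefSeq entry, 24 had the bases after the entry's start in a transcript.

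The core began 120 bases before the Rsad2 start, 156 and 122 bases before Ifit3, 188 and 154 bases before Ifit3b, 104 and 85 bases before Ifit1, and 155 bases before Slfn5. In front of Isg15 it occurred 3 times with overlaps, beginning 78, 72 and 66 bases before the start. A longer window of 250 bases was also searched. Shifted by 32 bases, the longer windows of the related genes Ifit3 and Ifit3b had 188 of 218 bases in common (86.2%). How reads of the transcripts were divided between this pair is uncertain and was not tested. In the longer window, 13 of the 29 members with a RefSeq entry held the ISRE core on either strand (44.8%), against 936 of 27025 genes (3.46%). The GAS core TTCNNNGAA, searched the same way, occurred in 5 of the 29 members (17.2%), against 8.13% of genes. These matches are letters in a window and not measured binding sites.

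The matrix held 2836 barcodes and 18170115 unique molecular identifiers (UMIs), each a tagged transcript, and 1849 cells had a single mouse's hashtag and passed the quality filters. A myeloid cluster of 66 cells and 18 cells led by markers of other cell types were left out, a choice made after seeing the data, which left 1765 B-lineage cells. Of the 18 cells, 2, 1 and 1 came from the LDHA-deficient mice and 3, 2 and 9 from the LDHA-sufficient mice. The marginal zone B-like cluster described below had held 9 of them. LDHA-deficient mice gave 269, 359 and 231 of the B-lineage cells with 1111785 to 1698645 UMIs per mouse, and LDHA-sufficient mice 313, 320 and 273 cells with 1374373 to 2199540 UMIs. Ldha itself, counted as counts per 1e6 UMIs (CPM) scaled by edgeR's TMM factors, was at 50.8, 50.9 and 69.8 CPM in LDHA-deficient mice and at 234, 242 and 164 CPM in LDHA-sufficient mice (log2 difference −1.91, SE 0.171, adjusted p = 0.000253), as the labels say. A 5′ library counts molecules, so levels were not divided by gene length. Summed levels, marker levels and levels in cells ranked by their member UMIs are CPM without TMM factors. Levels printed with an edgeR comparison carry that comparison's TMM factors, over the genes kept for it. The same class can therefore have different values in different comparisons.

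Clusters were built without the members and named from fixed markers: 313 follicular B-like, 287 marginal zone B-like, 208 GC B-like, 168 activated B-like, 135 transitional B-like and 17 plasma cell-like cells, with 637 cells in 2 unnamed clusters. Follicular B cells are the resting majority that joins GC reactions, and marginal zone B cells are the innate-like set that meets blood-borne antigen. GC B-like cells held 13.4%, 8.69% and 15.9% of the UMIs of LDHA-deficient mice, against 43.7%, 48.6% and 17.2% in LDHA-sufficient mice. The 11 GC markers summed to 197 to 276 CPM in LDHA-deficient mice and 383 to 1144 CPM in LDHA-sufficient mice. Summed markers of myeloid cells (211 to 221 CPM in LDHA-deficient mice, 197 to 204 CPM in LDHA-sufficient mice) and of plasmacytoid dendritic cells (230.2 to 240.3 CPM in LDHA-deficient mice, 213 to 249.6 CPM in LDHA-sufficient mice) were close in level in both genotypes, and each of these 9 and 6 markers had UMIs. How much of these sums came from transcripts of the B cells themselves was not tested.

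Member UMIs were spread unevenly over cells, with few in most cells and a small set of cells far above the rest. After each cell was thinned to 2000 UMIs, which left out 49 shallower cells, the 1716 remaining cells had a median of 5 and a mean of 6.40 member UMIs and a highest value of 74. Their variance was 5.94 times the mean, and 2.80% of cells had no member UMI. Free RNA in the droplets can add UMIs to any cell, and its part in the low counts was not tested. The highest cells, those with 17 or more, numbered 75 (4.37%) and held 18.6% of all member UMIs. They averaged 27.2 member UMIs against 5.45 in the rest. This set is the top of a continuous range, with 7 cells at 17 UMIs and 12 at 16, and is not a cell type.

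**Figure D1:**
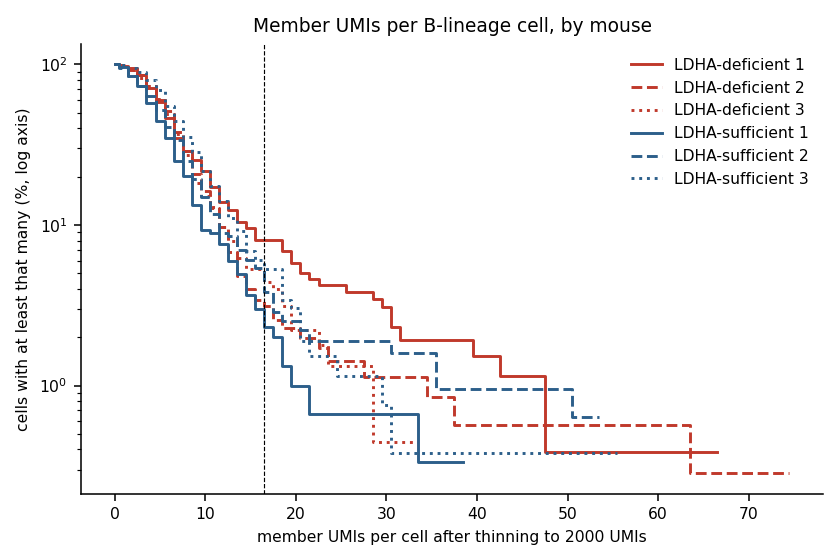
Share of each mouse's cells (percent, log axis) with at least the number of member UMIs on the horizontal axis, after thinning to 2000 UMIs, 1 line per mouse with LDHA-deficient mice in red and LDHA-sufficient mice in blue, and a dashed line at the bound of 17. The lines of both genotypes cross, LDHA-deficient mouse 1 is highest at the bound with 8.08% and LDHA-sufficient mouse 1 lowest with 2.33%.

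The members were high in the same cells. For each member in turn, the 88 cells with the highest summed level of the other members were compared with the rest, so that no gene helped to choose its own cells. All 35 members were higher in the cells ranked by the others, by a median ratio of 6.13, and 32 were higher in 6 of 6 mice while Ifi35, Irf9 and Ifi27l2a were higher in 5 of 6. With GC and plasma cell-like cells left out the median ratio was 6.58 and the lowest 1.83. These ratios describe cells of 6 mice and carry no test, because cells are not replicates.

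Effectors, the proteins that block viral replication, had the widest contrast, with a median ratio of 9.54 over 16 genes. Rsad2 (viperin, which makes a chain-terminating nucleotide) had 160.4 CPM in the cells ranked highest and 1.81 CPM in the rest, a ratio of 88.7, and 64 of its 81 UMIs came from the 88 cells. Ifit3, which binds other Ifit proteins that recognize foreign RNA ends, had 534 CPM in the cells ranked highest and 9.68 CPM in the rest, a ratio of 55.2. Its neighbour copy Ifit3b had a ratio of 48.0, and Ifit1, which binds RNA lacking the host cap methylation, had 113 CPM in the cells ranked highest and 3.83 CPM in the rest, a ratio of 29.6. Ifit2 followed with a ratio of 22.9, and none of its searched windows held the ISRE core. These 4 Ifit genes lie together on chromosome 19 between 34550694 and 34650009 (GRCm38, GENCODE). Slfn5, a member of the Schlafen family, had 617 CPM in the cells ranked highest and 44.5 CPM in the rest, a ratio of 13.9, and Isg15, a ubiquitin-like modifier, had 369 CPM in the cells ranked highest and 26.6 CPM in the rest, a ratio of 13.9. Lowest among the effectors were Bst2 (tetherin, which holds budding virus at the surface) with a ratio of 4.89, Slfn8 with 4.68, Oas1a with 4.64, the RNA-activated kinase Eif2ak2 with 4.40 and Samd9l, which restricts poxviruses, with 2.84.

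The sensors and regulators had smaller contrasts. The 4 sensors had ratios of 4.26 to 7.81, with Zbp1, which detects Z-form nucleic acid, at 7.81, Ifih1 (MDA5) at 7.12, Dhx58 (LGP2) at 6.13 and Ddx58 (RIG-I) at 4.26. Usp18, which removes Isg15 from proteins and damps the receptor, had 133 CPM in the cells ranked highest and 7.87 CPM in the rest, a ratio of 16.9. Irf7, the factor that amplifies interferon transcription, had a ratio of 7.84, while the ISGF3 subunits Stat2 and Irf9 had 3.02 and 2.33. Among the other 11, Rtp4 was highest at 9.71, and abundant genes differed less: Ifi203, a pyrin and HIN domain protein, with 1044 CPM in the cells ranked highest and 317 CPM in the rest, a ratio of 3.30, and Ifi27l2a with 1075 CPM in the cells ranked highest and 568 CPM in the rest, a ratio of 1.89.

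**Figure D2:**
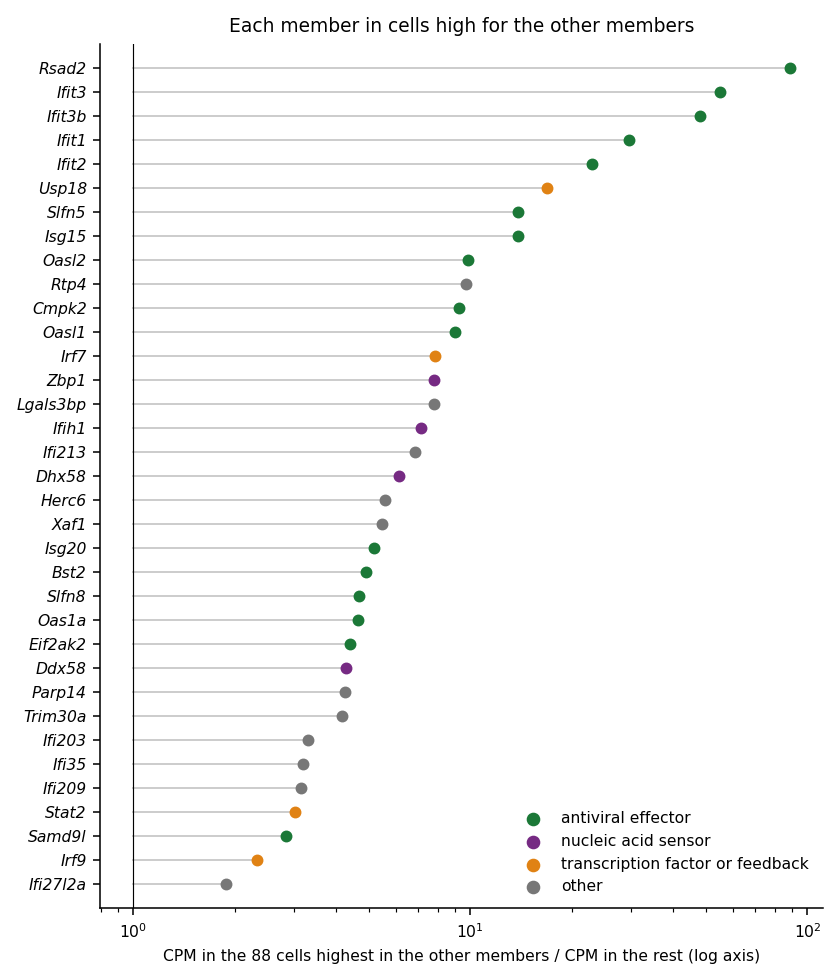
Ratio of each member's CPM in the 88 cells ranked highest by the other members over the remaining B-lineage cells, on a log axis, coloured by role, with a line at 1. All 35 points lie right of 1, from 1.89 for Ifi27l2a to 88.7 for Rsad2.

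Members whose window held an ISRE core had a median ratio of 6.85 (13 genes, 3.02 to 88.7), against 5.54 for the 16 without one (2.33 to 22.9), and the ranges overlapped widely.

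The 75 high cells also carried interferon targets outside the list, found by ranking the 5384 other genes with at least 50 UMIs that were seen in 10% or more of the high cells, whose median ratio was 1.04 and of which 213 had a ratio of 2 or more. The highest was Ifitm3, a membrane protein that hinders viral entry, with 132 CPM in high cells and 9.18 CPM in the rest (ratio 14.4, higher in 5 of 6 mice). Oas3 and Oas2, which make the oligoadenylate that activates RNase L, had ratios of 12.1 and 9.67. The rest of the first 10 were Gbp6 (9.59), Trim30c (9.54), the helicase Ddx60 (8.87), Sdc3 (8.81), Ifit1bl1 (7.23), Ifi208 (7.02) and the immunity-related GTPase Irgm1 (6.42). These genes were picked for their ratio in the same cells, so the values are a description.

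The rest of the pathway was mixed in these cells. Of 12 receptors, kinases and regulators with at least 50 UMIs, 2 had a ratio of 2 or more and 5 a ratio under 1, with a median of 1.16. The feedback inhibitor Socs1 had a ratio of 4.34 and was higher in 6 of 6 mice, while the kinase Jak1 had 1.09 and the gamma receptor chain Ifngr2 0.386. The receptor chains Ifnar1 and Ifnar2 had 1.59 and 1.90 and were higher in 5 and 3 of 6 mice. Of 16 sensing genes 4 had a ratio of 2 or more, among them the RNA-sensing receptor Tlr7 (2.74) and Irf1 (2.16), and the median was 1.25. Of 17 genes often used to report interferon gamma, 10 had a ratio of 2 or more, among them Igtp (4.58) and Ifi47 (5.55), and the median was 3.54, with the immunoproteasome subunit Psmb8 lowest at 0.875. None of the 21 interferon genes in the matrix had a UMI in a B-lineage cell.

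High cells and the rest had similar depth, at a median of 3762 UMIs and 1636 genes in high cells against 4018 UMIs and 1706 genes in the rest. Their median mitochondrial share was 2.54% in high cells and 2.28% in the rest, and their mean doublet score 0.125 in high cells and 0.155 in the rest. The median over cells of the 6 plasmacytoid dendritic markers was 246 CPM in high cells and 161 CPM in the rest. Pooled over cells, the 9 myeloid markers had 181 CPM in high cells and 208 CPM in the rest, the 6 plasmacytoid markers 318 CPM in high cells and 234 CPM in the rest, and the 11 GC markers 138 CPM in high cells and 668 CPM in the rest. These sums used the full marker lists, whereas Tcf4 and Runx2 were not counted when cells led by other types were removed. The parts of plasmacytoid and of B cell transcripts in the plasmacytoid sums were not tested.

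High cells occurred in most B cell classes. They were 15 of 128 transitional B-like cells (11.7%), 14 of 304 follicular (4.61%), 11 of 280 marginal zone (3.93%), 5 of 165 activated (3.03%) and 2 of 204 GC B-like cells (0.980%). An unnamed cluster led by Ifit3, Gvin1, Zbp1 and Slfn5 had 19 of 232 (8.19%), and the other unnamed cluster 9 of 386 (2.33%). Ifit3, Zbp1 and Slfn5 are members, so the description of that cluster and its share of high cells draw on the same genes. Among 17 plasma cell-like cells there were 0, which allows a share of up to 17.6%. Cells with no member UMI at this depth were 11.8% of GC B-like cells, 41.2% of plasma cell-like cells and 0.329% of follicular B-like cells.

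By mouse, high cells were 8.08% (21 of 260), 3.12% (11 of 352) and 4.44% (10 of 225) of cells in LDHA-deficient mice, against 2.33% (7 of 301), 3.81% (12 of 315) and 5.32% (14 of 263) in LDHA-sufficient mice. The exact 95% binomial interval of the highest share, LDHA-deficient mouse 1, was 5.07% to 12.1%, and that of the lowest, LDHA-sufficient mouse 1, was 0.940% to 4.73%, both for counting error only. The means were 5.22 ± 2.56% in LDHA-deficient mice and 3.82 ± 1.499% in LDHA-sufficient mice (SD, n = 3 each), and the difference of 1.40 points did not exceed the spread between mice (two-sided exact permutation test, p = 0.6, smallest possible p 0.1). Without LDHA-deficient mouse 1 the difference was −0.0347 points. It was 0.221 points with the 18 cells led by markers of other types kept, and 0.0216 points with the 4 most abundant members, Bst2 and Isg20 left out of the sum. That mouse alone had 31.6% of its member UMIs in high cells, while the other 5 mice had 10.7% to 19.2%.

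Across the named B cell classes, with the unnamed clusters left aside, the summed member level was lowest in plasma cell-like, GC and activated cells. As the mean over mice it was 4469 ± 821 CPM in transitional, 3599.8 ± 399.9 CPM in follicular and 3338 ± 402 CPM in marginal zone B-like cells (SD, n = 6 mice). It was 2299 ± 355 CPM in activated and 1865 ± 592 CPM in GC B-like cells, and 1045 ± 386 CPM in plasma cell-like cells of 5 mice. The ranges of marginal zone (2710.4 to 3822 CPM) and follicular B-like cells (3113 to 4109 CPM) overlapped, as did those of activated (1825 to 2683 CPM) and GC B-like cells (1309 to 2906 CPM). GC B-like cells are large, with a median of 10244 UMIs against 3175 in follicular cells. Counted per cell instead of as CPM, GC B-like cells held 24.5 ± 6.32 member UMIs, marginal zone 20.7 ± 2.63, activated 11.9 ± 1.39 and follicular 12.8 ± 0.839, so the order of GC and follicular cells turns with the scale.

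**Figure D3:**
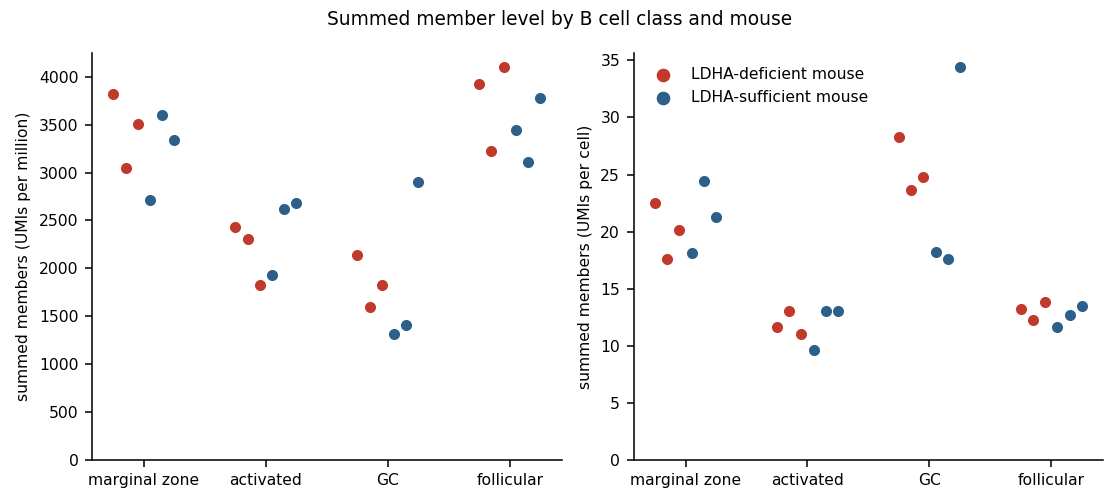
Summed level of the 35 members by B cell class, in CPM (left) and in UMIs per cell (right), 1 point per mouse with LDHA-deficient mice (red) left of LDHA-sufficient mice (blue). The activated and GC points lie under the follicular points in CPM, while per cell the GC points lie above them.

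The classes were next compared gene by gene in edgeR on sums per mouse, with the mouse as a block. The classes were cut from other genes of the same cells, so p-values between them rest on groups that those genes defined, and a filter on low counts removed many members from each comparison. The filter ran over both classes together, so a member could pass it through its higher class alone. In marginal zone against follicular B-like cells, 22 members passed the filter, of which 2 rose and 3 fell. Of all 4936 genes tested, 13.7% rose and 10.8% fell. Isg15 rose most: its lowest, median and highest values over the 6 mice were 54.2, 95.6 and 176 CPM in marginal zone B-like cells, against 9.93, 15.2 and 23.8 CPM in follicular B-like cells. The ranges did not overlap, and the log2 difference was 2.58 (SE 0.304, adjusted p = 3.54e-10). These Isg15 values rest on 18 UMIs in follicular B-like cells of all mice, against 151 UMIs in marginal zone B-like cells. Ifi27l2a, a small hydrophobic protein induced by interferon, averaged 803 ± 155 CPM in marginal zone B-like cells and 378 ± 107 CPM in follicular B-like cells (SD, n = 6 mice), a log2 difference of 1.07. Samd9l fell by 0.86, Slfn8 by 0.52 and Ifi209 by 0.38 on the log2 scale, as a share of transcripts. Marginal zone B-like cells were deeper, with a median of 4777 UMIs against 3175 in follicular B-like cells. Per 100 cells, Ifi209 had 246 UMIs in marginal zone B-like and 219 UMIs in follicular B-like cells. Slfn8 had 60.6 UMIs in marginal zone B-like and 59.1 UMIs in follicular B-like cells. Samd9l was also lower per cell in marginal zone B-like cells. The calls of Slfn8 and Ifi209 were lost with DESeq2 (adjusted p = 0.315 and 0.0894), and that of Slfn8 also without LDHA-deficient mouse 3 or LDHA-sufficient mouse 1 (adjusted p = 0.0939 and 0.219). Ifit3 had a log2 difference of 1.04 that did not pass (adjusted p = 0.0527).

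Scaling mattered in this comparison. With library totals in place of TMM factors, the median log2 difference of all genes was −0.30 instead of −0.04, and the split of called genes was 414 higher and 1354 lower instead of 678 and 534. The 22 members had a median of −0.08 instead of 0.18, and 5 instead of 3 fell, with Slfn5 and Ifi203 added. Isg15 and Ifi27l2a rose under both.

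GC against follicular B-like cells differed in 56.5% of the 4681 genes tested, 29.6% higher and 26.9% lower, a background against which the members are to be read. Of the 17 members that passed the filter, 12 fell and 1 rose, with a median log2 difference of −1.44 against −0.0012 over all genes. Slfn5 had lowest, median and highest values of 0, 7.23 and 24.9 CPM in GC B-like cells, against 91.8, 116 and 159 CPM in follicular B-like cells. No GC value reached the follicular range, and the log2 difference was −3.62 (SE 0.353, adjusted p = 8.48e-11). These Slfn5 values rest on 21 UMIs in GC B-like cells of all mice, against 119 UMIs in follicular B-like cells. Ifi203 averaged 168 ± 72.9 CPM in GC B-like cells and 628 ± 64.8 CPM in follicular B-like cells (SD, n = 6 mice; log2 difference −2.05). The sensor Ddx58 fell by 2.01, and the ISGF3 subunits Irf9 (−1.45) and Stat2 (−1.07) fell as well. The others that fell were Slfn8 (−2.83), Ifi213 (−2.61), Samd9l (−2.14), Ifi209 (−1.56), Xaf1 (−1.44), Trim30a (−1.18) and the ADP-ribosyltransferase Parp14 (−0.80), each lower in 6 of 6 mice. Herc6, the mouse ligase that attaches Isg15, Eif2ak2, Bst2 and Ifi35 did not pass. Ifi203, Ifi209 and Ifi213 are related genes of 1 cluster on chromosome 1, and how reads were shared between them is uncertain.

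Of the members tested, only Ifi27l2a was called higher. It averaged 795 ± 437 CPM in GC B-like cells and 418 ± 116 CPM in follicular B-like cells (SD, n = 6 mice), a log2 difference of 0.81 (SE 0.167, adjusted p = 0.00017). This call was lost with coarser clusters (log2 difference 0.43, adjusted p = 0.426) and without the mouse as block (0.85, adjusted p = 0.0628). Per 100 cells, Ifi27l2a had 717 UMIs in GC B-like and 144 UMIs in follicular B-like cells, whereas Slfn5 had 10.1 UMIs in GC B-like and 38.0 UMIs in follicular B-like cells and Ifi203 149.5 UMIs in GC B-like and 202 UMIs in follicular B-like cells. Of the 12 members that fell, 6 were also lower per cell (Ddx58, Ifi203, Ifi213, Samd9l, Slfn5 and Slfn8), and the other 6 (Ifi209, Irf9, Parp14, Stat2, Trim30a and Xaf1) were higher per cell in GC B-like cells. Ifi209, for example, had 271 UMIs per 100 GC B-like cells against 219 per 100 follicular B-like cells. Rsad2 had 0 UMIs in 208 GC B-like cells, which allows up to 1.10 CPM, and 0 in 168 activated cells, which allows up to 3.40 CPM, against 6 UMIs in 313 follicular cells. Members below the filter went both ways. As means of mice without TMM factors, Isg15 had 29.0 CPM in GC B-like and 16.8 CPM in follicular B-like cells (higher in 5 of 6 mice). Lgals3bp had 23.7 CPM and 7.92 CPM (higher in 4 of 6), and Oasl2 2.95 CPM and 18.7 CPM (higher in 1 of 6).

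In activated against follicular B-like cells, 9 of 16 members tested fell and 1 rose, where 41.9% of the 3900 genes were called, 20.2% lower and 21.8% higher. Slfn5 averaged 41.3 ± 33.6 CPM in activated B-like cells and 118 ± 29.0 CPM in follicular B-like cells (SD, n = 6 mice; log2 difference −1.46, SE 0.323, adjusted p = 0.000311). Samd9l (−1.31), Ifi213 (−1.17), Ifi209 (−1.12), Slfn8 (−1.001), Ddx58 (−0.97), Stat2 (−0.88), Ifi203 (−0.81) and Parp14 (−0.59) fell as well, and these 8 and Slfn5 also fell in GC B-like cells, a comparison that shares the follicular cells. Ifi27l2a rose by 0.69, a call lost with coarser clusters (adjusted p = 0.0764). With interferon genes kept in the clustering (4 sums), edgeR no longer called Ifi27l2a, Ddx58, Ifi203, Stat2 or Parp14 (adjusted p = 0.140, 0.0991, 0.0715, 0.0934 and 0.410). The calls of Stat2 and Parp14 were lost with DESeq2 (adjusted p = 0.174 and 0.189) and without LDHA-sufficient mouse 3 (adjusted p = 0.0855 and 0.0501), and that of Parp14 also without LDHA-deficient mouse 3 (adjusted p = 0.139). With library totals the split of all called genes was 672 higher and 1078 lower instead of 849 and 786, and the members again gave 9 lower and 1 higher. Isg15 and Lgals3bp, not called, averaged 28.6 and 30.0 CPM in activated B-like cells without TMM factors. In follicular B-like cells they averaged 16.8 and 7.92 CPM, and activated cells were higher in 5 and 4 of 6 mice.

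**Figure D4:**
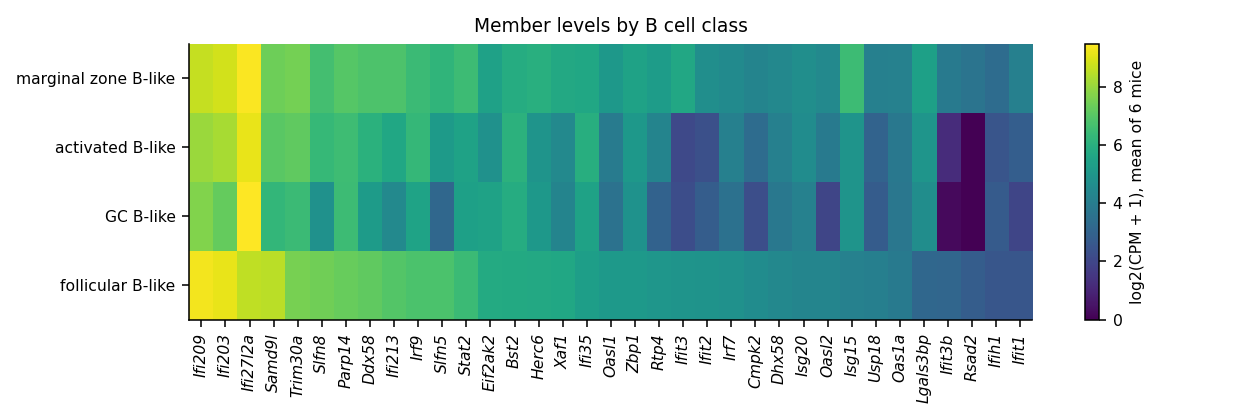
Level of each of the 35 members in 4 B cell classes as log2(CPM + 1), the mean of 6 mice, with colour from dark (0) to bright, genes ordered by their level in follicular B-like cells. Rsad2 and Ifit3b are the darkest in GC B-like cells, and Isg15 is brightest in marginal zone B-like cells.

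The receptors and kinases of the pathway were also lower in GC B-like cells as a share of transcripts. Of 11 tested, 9 fell and 0 rose, where 26.9% of all genes fell and 29.6% rose, but 8 of these 9 had more UMIs per cell in GC B-like than in follicular B-like cells, all but Il10rb. Ifnar1 averaged 44.5 ± 28.9 CPM in GC B-like cells and 115 ± 11.8 CPM in follicular B-like cells (log2 difference −1.54). Ifngr2 (−1.88), Il10rb (−1.83), Tyk2 (−1.24), Jak2 (−1.14), Ifngr1 (−1.12), Jak1 (−1.07) and Ifnar2 (−0.97) were among the others. Among 10 sensing genes 5 fell, with Irf1 at −1.52 and Tmem173 (STING) at −1.33, and all 5 were higher per cell. Of 11 gamma interferon targets 5 fell, among them Gbp9 (−1.89) and Ciita (−1.48), and the immunoproteasome subunits Psmb8 (0.75) and Psmb9 (0.69) rose, and 4 of the 5 that fell were higher per cell. In marginal zone against follicular cells the endosomal receptors Tlr7 (0.76) and Tlr9 (0.89) and their chaperone Unc93b1 (0.59) rose and Irf2 fell, 3 and 1 of 11 sensing genes, while Jak1 and Jak2 fell among 11 receptors and kinases and 3 of 12 gamma targets rose and 1 fell, where 13.7% of all genes rose and 10.8% fell. In activated cells 4 of 10 receptors and kinases, 2 of 10 sensing genes and 2 of 10 gamma targets fell, and Ifi47 rose, where 20.2% of all genes fell and 21.8% rose, so the sensing and gamma lists were at the share of all genes.

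Between genotypes, no member passed edgeR's test in any cell set with the filter on low counts and all 6 mice, and the differences were smaller once GC cells were left out. Over all B-lineage cells edgeR called 0 of 35 members, where 115 of 9165 genes were called (1.25%), 17 higher and 98 lower in LDHA-deficient mice. DESeq2 called 173 genes and 0 members, and edgeR with no filter on low counts called 627 of 16519 genes and 7 of 35 members, all 7 higher: Ifi213, Ddx58, Ifit3, Isg15, Lgals3bp, Rtp4 and Slfn8. At an unadjusted p under 0.05 edgeR had 10 members and 16.4% of all genes. The log2 difference was above 0 for 32 of 35 members and 52.1% of all genes, with a median of 0.43 for the members and 0.01 for all genes. In 4 members, Ifit2, Lgals3bp, Oas1a and Xaf1, all LDHA-deficient mice were above all LDHA-sufficient mice, as for 9.36% of genes, and in 0 members they were all below, as for 10.1%.

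Among the effectors, Ifit1 had 17.5, 11.6 and 7.95 CPM in LDHA-deficient mice, against 4.49, 4.17 and 9.08 CPM in LDHA-sufficient mice (log2 difference 1.15, SE 0.395, adjusted p = 0.164). The groups overlapped only through LDHA-deficient mouse 3 and LDHA-sufficient mouse 3. Ifit3 had 57.2, 31.9 and 36.2 CPM in LDHA-deficient mice, against 13.5, 33.8 and 27.2 CPM in LDHA-sufficient mice (log2 difference 0.75, SE 0.359, adjusted p = 0.354), and Isg15 had 74.6, 36.2 and 48.6 CPM in LDHA-deficient mice, against 28.3, 38.5 and 34.8 CPM in LDHA-sufficient mice (log2 difference 0.64, SE 0.244, adjusted p = 0.227). In both, LDHA-deficient mouse 1 was highest. Rsad2 had 19.8, 5.51 and 6.18 CPM in LDHA-deficient mice, against 4.94, 9.27 and 6.81 CPM in LDHA-sufficient mice (log2 difference 0.55, SE 0.483, adjusted p = 0.606), again with LDHA-deficient mouse 1 above the other 5. Samd9l had 197, 230.4 and 229.7 CPM in LDHA-deficient mice, against 137, 141 and 225 CPM in LDHA-sufficient mice (log2 difference 0.40, SE 0.182, adjusted p = 0.314), and Slfn8 had 133, 105 and 96.3 CPM in LDHA-deficient mice, against 58.9, 68.2 and 98.4 CPM in LDHA-sufficient mice (log2 difference 0.59, SE 0.188, adjusted p = 0.152). In both of these LDHA-sufficient mouse 3 stood near the LDHA-deficient mice and its 2 group mates were lower.

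The sensors had a similar spread. Ddx58 had 136, 116 and 95.4 CPM in LDHA-deficient mice, against 66.9, 64.9 and 108 CPM in LDHA-sufficient mice (log2 difference 0.56, SE 0.204, adjusted p = 0.214), with LDHA-sufficient mouse 3 inside the LDHA-deficient range. Zbp1 had 47.6, 43.5 and 40.6 CPM in LDHA-deficient mice, against 31.9, 40.3 and 44.6 CPM in LDHA-sufficient mice (log2 difference 0.19, SE 0.176, adjusted p = 0.62), and Ifih1, at few counts, had 7.14, 7.97 and 9.72 CPM in LDHA-deficient mice, against 7.64, 5.10 and 6.05 CPM in LDHA-sufficient mice (log2 difference 0.38, SE 0.363, adjusted p = 0.638). Both overlapped between genotypes. Of the regulators, Stat2 had 66.7, 81.5 and 87.5 CPM in LDHA-deficient mice, against 48.1, 54.7 and 71.1 CPM in LDHA-sufficient mice (log2 difference 0.46, SE 0.163, adjusted p = 0.176). Irf7 had 38.9, 25.1 and 11.5 CPM in LDHA-deficient mice, against 18.9, 18.1 and 18.2 CPM in LDHA-sufficient mice (log2 difference 0.47, SE 0.323, adjusted p = 0.506), and Usp18 had 17.5, 7.97 and 21.2 CPM in LDHA-deficient mice, against 10.3, 12.5 and 13.6 CPM in LDHA-sufficient mice (log2 difference 0.32, SE 0.329, adjusted p = 0.665). The LDHA-deficient values of Irf7 and Usp18 spanned all those of the LDHA-sufficient mice.

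The remaining members of high level were of the other group. Ifi27l2a, the most abundant, had 659, 612 and 462 CPM in LDHA-deficient mice, against 449, 561 and 901 CPM in LDHA-sufficient mice (log2 difference −0.14, SE 0.304, adjusted p = 0.865), and the highest and lowest mice were both LDHA-sufficient. Ifi209 had 458, 430.1 and 393 CPM in LDHA-deficient mice, against 276, 322 and 459 CPM in LDHA-sufficient mice (log2 difference 0.28, SE 0.166, adjusted p = 0.432), and Ifi203 had 466, 388 and 388 CPM in LDHA-deficient mice, against 251, 289 and 429 CPM in LDHA-sufficient mice (log2 difference 0.36, SE 0.187, adjusted p = 0.381). LDHA-sufficient mouse 3 lay among the LDHA-deficient mice in Ifi203 and at their upper end in Ifi209. Trim30a had 169, 146 and 162 CPM in LDHA-deficient mice, against 97.5, 119.6 and 176 CPM in LDHA-sufficient mice (log2 difference 0.29, SE 0.188, adjusted p = 0.471), and Parp14 had 125, 126 and 121 CPM in LDHA-deficient mice, against 93.5, 115 and 139 CPM in LDHA-sufficient mice (log2 difference 0.11, SE 0.140, adjusted p = 0.733). Their highest values came from LDHA-sufficient mouse 3. The smallest p of all members belonged to Lgals3bp, a secreted glycoprotein (log2 difference 0.85, adjusted p = 0.118).

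The summed member level over all B-lineage cells was 3480, 3003 and 2902 CPM in LDHA-deficient mice, against 2091, 2451 and 3370.3 CPM in LDHA-sufficient mice, with means of 3128 ± 309 CPM in LDHA-deficient and 2638 ± 659.6 CPM in LDHA-sufficient mice (SD, n = 3 each). Over B-lineage cells without GC and plasma cell-like cells it was 3758, 3137 and 3122 CPM in LDHA-deficient mice, against 2844, 3533 and 3587 CPM in LDHA-sufficient mice, with means of 3339 ± 363 CPM in LDHA-deficient and 3321 ± 414 CPM in LDHA-sufficient mice. The GC share of UMIs, given above, moved with the first of these differences. Markers of plasma cells also differed between genotypes, at 841, 405 and 694 CPM in LDHA-deficient mice and 2520, 1437 and 2316 CPM in LDHA-sufficient mice. LDHA-sufficient mouse 3 was high both in these markers and in the member sum. Activated B-like cells, also low in members, held 11.6% to 14.0% of UMIs in LDHA-deficient mice and 4.99% to 7.78% in LDHA-sufficient mice. Within GC B-like cells the sums were 2143, 1598 and 1821 CPM in LDHA-deficient mice, against 1309, 1409.8 and 2906 CPM in LDHA-sufficient mice. The count of calls over all B-lineage cells depended on which mouse was left out. Without LDHA-sufficient mouse 1 or 2 edgeR called 40 and 35 genes and 0 members. Without LDHA-sufficient mouse 3 it called 1393 of 9582 genes, 535 higher and 858 lower, and 16 of 35 members higher, with a member median of 0.58. These 16 had log2 differences of 0.51 (Ifi209) to 1.498 (Ifit1), and 5 of them were effectors of the Schlafen, Ifit and Oas families: Slfn5 (0.84), Slfn8 (0.81), Ifit1, Ifit2 (0.83) and Oasl2 (1.47). How much of the all-cell differences moves with the cell classes was not tested beyond these values.

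Without GC and plasma cell-like cells, edgeR called 0 of the 34 members tested and 10 of 8369 genes (0.119%), DESeq2 called 0 members and 1 gene, and 0 members against 5.39% of genes had an unadjusted p under 0.05. Ifih1 was below the filter. The log2 difference was above 0 for 25 members and 48.9% of genes, with a member median of 0.09. That direction rested on single mice: without LDHA-deficient mouse 1 it was above 0 for 15 of 35 members (median −0.013), and without LDHA-sufficient mouse 1 for 17 of 35 (median −0.0051). With all mice no member had genotypes that did not overlap, as 5.08% of genes had above and 5.70% below. These log2 differences lay nearer 0 than over all cells in most named members: Ifit1 had 0.43 (SE 0.358), Isg15 0.34, Slfn8 0.08, Ddx58 0.09, Rsad2 −0.11, Ifi203 −0.13 and Ifi27l2a −0.28. Ldha itself still differed in these cells (−1.39, SE 0.136, adjusted p = 3.05e-12).

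Single classes gave no call among the members either, with edgeR or with DESeq2. Follicular B-like cells had 13 members tested, 8 of them above 0 (50% of genes), and 0.0316% of genes called. Without 1 mouse the number above 0 ran from 5 of 16 (LDHA-sufficient mouse 2 left out) to 9 of 14 (LDHA-sufficient mouse 3 left out). Marginal zone B-like cells had 23 tested, 16 above 0 (49.3% of genes), and 0.206% of genes called. Without LDHA-deficient mouse 1 11 of 23 were above 0, and without LDHA-sufficient mouse 1 there were 12 of 23. For Samd9l in these cells all LDHA-deficient mice were above all LDHA-sufficient mice, as for 5.37% of genes. Activated B-like cells had 9 tested, 2 above 0 (48.3% of genes), and 0.205% of genes called. GC B-like cells had 6 tested, 3 above 0 (52.6% of genes), and 0.327% of genes called. In GC B-like cells Ifi203 had 263, 164 and 278 CPM in LDHA-deficient mice, against 103, 95.02 and 145 CPM in LDHA-sufficient mice, which did not overlap, as for 7.22% of genes (log2 difference 1.13, SE 0.257, adjusted p = 0.0812). That gene passed without LDHA-deficient mouse 2 (log2 difference 1.29, adjusted p = 0.0379), without LDHA-sufficient mouse 3 (1.23, adjusted p = 0.0257) and with no filter on low counts (0.98, adjusted p = 0.0304). Its values came from 38, 20 and 42 UMIs in 13, 10 and 13 cells of LDHA-deficient mice. LDHA-sufficient mice had 91, 90 and 30 UMIs in 69, 83 and 20 cells. The smaller GC B-like cluster held 2, 1 and 0 cells of LDHA-deficient mice, against 22, 34 and 5 of LDHA-sufficient mice. Its part in the Ifi203 difference was not tested. At an unadjusted p under 0.05 edgeR had 0 members and 4.4% of genes in follicular, 2 members (Ifi35 and Xaf1) and 6.63% of genes in marginal zone, 0 members and 3.94% of genes in activated, and 1 member (Ifi203) and 10.2% of genes in GC B-like cells. The difference between marginal zone and follicular cells did not itself depend detectably on genotype: edgeR called 0 of 4936 genes (200 at an unadjusted p under 0.05, 4.05%) and 0 of 22 members, of which 0 had an unadjusted p under 0.05.

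**Figure D5:**
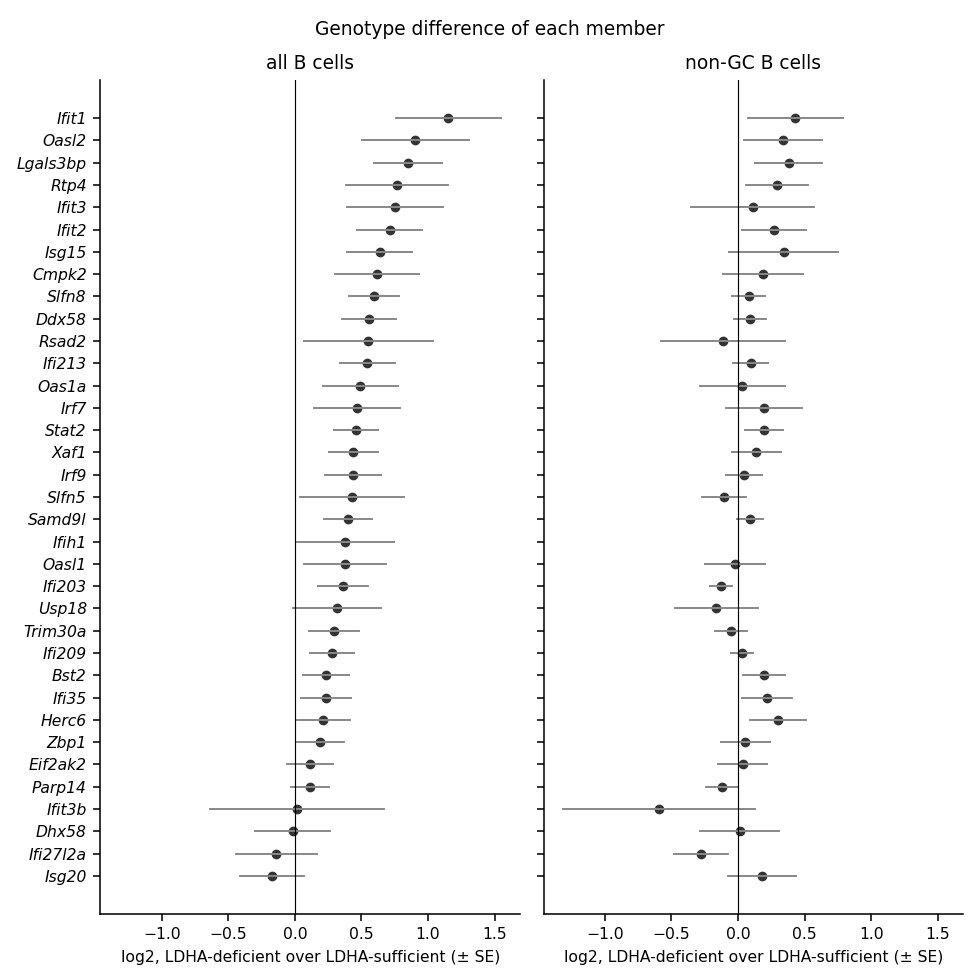
Log2 difference of each member between LDHA-deficient and LDHA-sufficient mice from edgeR, with bars of 1 SE, over all B-lineage cells (left) and over those without GC and plasma cell-like cells (right, where Ifih1 was not tested). On the left 32 of 35 points lie above 0 with a median of 0.43, on the right 25 of 34 with a median of 0.09, and none passed the test with all 6 mice and the filter.

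The pathway around the members gave no genotype call over all B cells: 0 of 12 receptors and kinases, 0 of 16 sensing genes and 0 of 17 gamma targets tested. The smallest p in each list belonged to Ifngr2 (56.2 ± 5.05 CPM in LDHA-deficient mice, 37.5 ± 10.8 CPM in LDHA-sufficient mice, adjusted p = 0.116), Myd88 (log2 difference −0.65, adjusted p = 0.162) and Irgm1 (0.60, adjusted p = 0.168). Next in their lists were Ifnar2 (0.50), Ifnar1 (0.42) and Il10rb (0.30), then Adar (0.32), Unc93b1 (0.22) and Tlr7 (0.43), and Gbp6 (0.99), Psmb9 (−0.35) and Ciita (0.26), none past the test. Without GC and plasma cell-like cells there were 0 calls among 12, 15 and 17 tested in the same lists.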

How the data were processed

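The data were UMI counts per gene and cell barcode from 1 10x 5′ v2 lane of 6 pooled mice, with hashtag UMI counts for the same barcodes. The deposited count matrices were made by the authors with Cell Ranger, version 6.0.0 per the submitters' processing notes and 6.0.2 per the file headers, on mm10, and the notes also name Seurat 4.2.1. Alignment settings: not given in the sources used here. The protocol targeted about 30000 cells, and the matrix held 2836 barcodes. The heavy chain library was not used here.

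Hashtags were assigned with HTODemux (Seurat 5.3.0, quantile 0.99): of 2831 barcodes with hashtag counts, 1856 carried 1 hashtag, 820 were doublets between mice and 155 carried none. Barcodes with at least 500 genes, 1000 UMIs and under 10% mitochondrial UMIs were kept. About 167.2 doublets within a mouse were expected and could not be removed, since Scrublet called 0. Cells were clustered with scanpy 1.11.5 (Leiden, resolution 0.8, 2000 variable genes, 30 components, 20 neighbours) without the members and other interferon-induced families. Cluster names required 3 or more fixed markers at least 1.5-fold above the other cells.

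Counts were summed per mouse and class (at least 20 cells, or 5 for GC B-like cells) and tested with edgeR 4.0.16 (TMM factors, filterByExpr, quasi-likelihood, Benjamini-Hochberg adjustment over all genes tested, threshold 0.05), which was tested on simulated data. For genotype, 19 of 194 simulated calls were false over all B cells, 10 of 191 without GC cells and 5 of 154 in marginal zone B-like cells. Simulated log2 changes of 1 were found in 76.1%, 84.0% and 53.3% of cases. Against follicular cells, 6 of 182 calls in marginal zone and 8 of 173 in GC B-like cells were false, and 75.3% and 70.5% were found. Comparisons between classes had the mouse as a block. Alternatives were DESeq2 1.42.0 and its size factors, library totals, no filter beyond 1 UMI, hashtag calls by an 80% share of hashtag UMIs, removal of the 167 highest doublet scores, resolution 0.4, clustering with interferon genes kept, and leaving out each mouse. Levels per cell used a thinning to 2000 UMIs, and intervals are exact binomial at 95%.

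Members, roles, marker lists and pathway lists were chosen with earlier results of these data known. Values per mouse are given for members past the threshold between genotypes, the 8 with the highest mean level and an example or more of each role, and the non-members for the first 10 by ratio in high cells. The removal of 18 cells led by other cell types, the doublet-score alternative for high cells and the library totals were chosen after seeing the data. Some genes are not reported here.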

Additional observations from a re-analysis of the deposited data

How the results depend on the processing

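No paired analysis was possible between genotypes because the hashtag numbers tie no LDHA-deficient mouse to an LDHA-sufficient one. Between classes the mouse was a block. Without the block edgeR called 1126 genes and 5 members in marginal zone, 2083 genes and 10 members in GC, and 1305 genes and 9 members in activated against follicular B-like cells, and of single members tested for it only Ifi27l2a in GC B-like cells lost its call.

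Most counts stayed within 1.5 times the reported ones, and these did not. For genotype over all B cells, genes called were 173 with DESeq2, 308 with the 80% hashtag rule and 627 of 16519 with no filter, which also gave 7 members. Without GC cells they were 1 with DESeq2, 5 with high doublet scores removed and 28 with no filter. In follicular B-like cells they were 0 with library totals, 2 at resolution 0.4, 4 with interferon genes kept, 2 with doublet scores removed and 2 with no filter. In marginal zone B-like cells they were 1 with DESeq2, 0 at resolution 0.4 (4 mice), 2 with interferon genes kept and 18 with no filter. In activated B-like cells they were 8 with the 80% rule (4 mice) and 12 with no filter. In GC B-like cells they were 0 at resolution 0.4, 7 with doublet scores removed and 131 with no filter, which gave 1 member. Between classes, marginal zone against follicular gave 501 genes and 3 members with DESeq2, and GC against follicular gave 25 of 32 members at resolution 0.4. Activated against follicular gave 830 genes with DESeq2, 766 genes and 4 of 13 members with interferon genes kept (4 sums), and 18 of 26 members at resolution 0.4 (10 sums). The causes were not tested. The genotype fit in activated cells with interferon genes kept could not be run, for want of mice with 20 cells.

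With 1 mouse left out, genes called between genotypes ranged from 18 to 1393 over all B cells, 4 to 31 without GC cells, 0 to 3 in follicular, 4 to 21 in marginal zone, 4 to 9 in activated and 2 to 71 in GC B-like cells. Members called ranged from 0 to 16 over all B cells and 0 to 1 in GC B-like cells, and were 0 in the other genotype fits and in the interaction, which called 0 to 2 genes. Between classes genes ranged from 954 to 1107 in marginal zone (5 to 6 members), 2359 to 2569 in GC (12 to 13) and 1407 to 1509 in activated B-like cells (8 to 10). The genotype difference in the share of high cells ranged from −0.0347 points without LDHA-deficient mouse 1 to 2.44 points, and from 0.0216 to 2.27 points under the other alternatives (exact p 0.3 to 1).

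Depth limits the members unevenly. Rsad2 had 81 UMIs and Ifih1 69 over all B-lineage cells, while Ifi27l2a had 5753, and between 6 and 34 members passed the filter in the genotype fits that left out some classes.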

Other observations

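The 66 cells of the myeloid cluster, left out of all comparisons and pooled over mice, had a summed member level of 3711 CPM from 974 UMIs, against 2781 CPM in all B-lineage cells. Ifi27l2a made up 324 of those UMIs. With so few cells the cluster was not split by genotype. The B cell gene Cd79a had UMIs in 89.4% of its cells and in 99.6% of B-lineage cells. C1qa, found in macrophages, had UMIs in 39.4% and 0.680%. The median depth was 2545 UMIs in the cluster and 3934 in B-lineage cells. How much of the cluster's member level came from B cell transcripts was not tested.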
